A study of Bos taurus with 72 samples.

Results

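ENSBTAG00000021617 and ENSBTAG00000011839 are the 2 genes with the largest rises in the complete medium (POS) against the medium without essential amino acids (NEG), among 12121 genes tested of the 29550 genes in the FPKM table of bovine mammary epithelial cells (BMECs). They were chosen by that rise itself, so their levels in POS and NEG are given as a description. The questions that remained were whether any single essential amino acid (EAA) raised them part of the way, whether they moved together over libraries, and which other genes followed them. Primary BMECs from mammary tissue of healthy dairy cows, at passage 6, were starved of serum overnight and then kept for 6 h in 1 of 12 media, with 6 replicates of each and 72 libraries in all. POS was DMEM-F12 medium with all EAA and NEG was DMEM-F12 medium devoid of all EAA. The other 10 media were NEG with 1 EAA returned to its concentration in POS, either arginine (Arg), histidine (His), isoleucine (Ile), leucine (Leu), lysine (Lys), methionine (Met), phenylalanine (Phe), threonine (Thr), tryptophan (Trp) or valine (Val). All cells carried the wild-type genotype, and how many cows they came from is not stated. The label of epithelial cells was not checked, because the table gives no gene symbols from which epithelial or fibroblast markers could be found.

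As background, animal cells sense the supply of EAA by several routes. Uncharged tRNA activates the kinase GCN2, which raises translation of the transcription factor ATF4 and so the transcription of many genes of amino acid transport and synthesis. The kinase complex mTORC1 promotes translation and growth when amino acids are present, and leucine and arginine each have sensor proteins of their own that act on it. In the mammary gland both routes are known for their part in milk protein synthesis. The identities of both genes are not paired with names here, so nothing is said of their place in these routes.

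An FPKM value is a read count corrected for the length of the gene and for a factor of the library, so that levels of different genes can be compared. Here that factor followed the median ratio of reads between libraries, not the total of reads. Total reads over the factor ranged from 0.917 to 1.19 times the median of the 72 libraries. Whole reads could be recovered from the FPKM, which gave lengths of 4087 bp for ENSBTAG00000021617 and 5151 bp for ENSBTAG00000011839, and total reads on genes between 12006111 and 18602430 per library (median 15865514.5). ENSBTAG00000021617 had between 70 and 2122 reads in a library and ENSBTAG00000011839 between 6250 and 58479, so counting error was larger for the first. How reads shared with overlapping genes or near-identical copies were counted is not given. Leu_1, Arg_4 and POS_4 (the number is the replicate) stood apart from the other libraries, with 10495, 11838 and 13537 genes above 0, where the other 69 libraries had between 15211 and 18393. NEG_2 stood apart in its scaling, as its total reads over its library factor were 1.19 times the median of the 72 libraries and the next highest was at 1.06. In bulk RNA, fewer cells of a type and less RNA per cell cannot be told apart.

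ENSBTAG00000021617 was a low gene without EAA and a well expressed gene in complete medium. In NEG its level was 1.27 FPKM in the lowest library, 4.61 at the median and 5.30 in the highest. In POS it was 21.3 FPKM in the lowest library, 27.9 at the median and 36.1 in the highest, so that the libraries of both media did not overlap. The mean was 27.6 ± 5.26 FPKM in POS and 4.21 ± 1.48 in NEG (SD, n = 6 each), a ratio of 6.56 and a difference of 2.51 on the log2(FPKM + 1) scale (SE 0.24). Among the 12121 genes tested, 24.5% had a lower mean FPKM in NEG and 75.9% a lower one in POS. The low value of NEG belonged to NEG_2, and the other 5 NEG libraries lay between 4.40 and 5.30 FPKM with a mean of 4.80 ± 0.371 (SD). Without NEG_2 the difference was 2.29 on the log2 scale.

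ENSBTAG00000011839 was already among the more abundant genes without EAA. Its level in NEG was 88.3 FPKM in the lowest library, 93.3 at the median and 109.9 in the highest, which was again NEG_2, and in POS it was 436 in the lowest, 515 at the median and 819 in the highest. The mean was 548 ± 141 FPKM in POS and 95.5 ± 7.51 in NEG (SD, n = 6 each), a ratio of 5.74 and a difference of 2.48 on the log2 scale (SE 0.15). Of the genes tested, 92.7% had a lower mean FPKM in NEG and 99.1% in POS. The highest POS library was POS_4, which had few genes above 0, and without it the mean of POS was 494 ± 54.3 FPKM. Without POS_4 the difference was 2.36 on the log2 scale (SE 0.098), and that of ENSBTAG00000021617 was 2.43. Over the table, 32.7% of the genes tested differed between POS and NEG by limma at a Benjamini-Hochberg adjusted p under 0.05 and 14.3% were higher in POS. The next gene, just outside the rule, had a difference of 2.39 on the log2 scale.

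**Figure D1:**
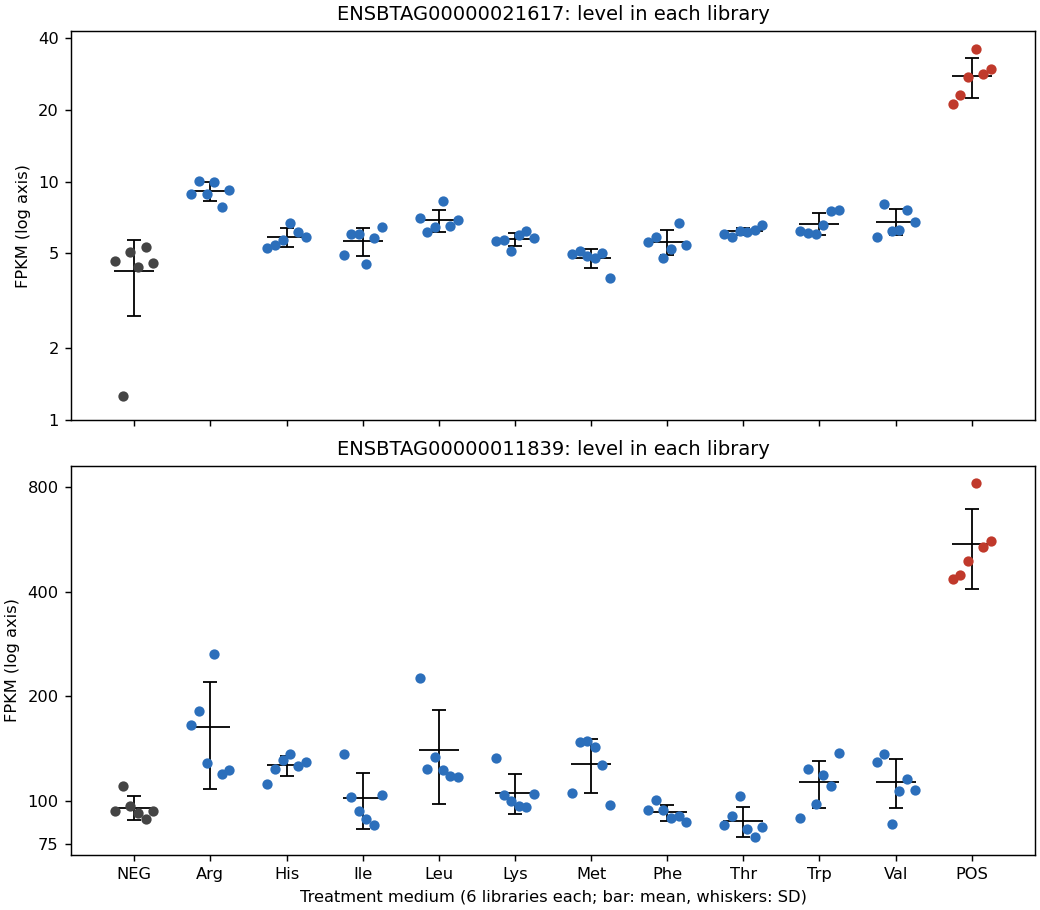
Level of each gene in FPKM (log axis) in the 72 libraries, by treatment medium, with 6 libraries in each; points are libraries, horizontal bars are means and whiskers are SD. POS stands above all other media for both genes, Arg is highest among the single EAA, and the single low point of ENSBTAG00000021617 is NEG_2 at 1.27 FPKM.

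No single EAA brought either gene to its level in POS. For ENSBTAG00000021617, 48 of the 60 libraries with a single EAA lay above the highest NEG library and 0 of 60 reached the lowest POS library. The highest of the 60 had 10.0 FPKM, and the lowest POS library was 2.12 times that. For ENSBTAG00000011839, 31 of 60 lay above the highest NEG library and 0 of 60 reached POS. Its highest value was 264 FPKM, in Arg_4, and the lowest POS library was 1.65 times that.

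Arginine gave the highest level of ENSBTAG00000021617 among the single EAA. With Arg it was 7.86 FPKM in the lowest library, 9.03 at the median and 10.0 in the highest, with a mean of 9.13 ± 0.812 (SD, n = 6), and all 6 libraries were above the highest NEG library. Leu gave a lowest value of 6.18, a median of 6.71 and a highest value of 8.26 FPKM (mean 6.89 ± 0.738), with all 6 above NEG as well. After these came Val with a mean of 6.80 ± 0.850, Trp with 6.67 ± 0.708 and Thr with 6.19 ± 0.229, and in each of these all 6 libraries lay above NEG. In His (5.85 ± 0.517) and Lys (5.74 ± 0.358) 5 of 6 libraries lay above NEG, and in Ile (5.64 ± 0.748) and Phe (5.60 ± 0.655) 4 of 6 did. Met was the lowest at 4.79 ± 0.437 FPKM, with 3.93 in the lowest library, 4.94 at the median and 5.13 in the highest, and none of its 6 libraries was above the highest NEG library. In the order of mean levels, the steps from POS to Arg, from Arg to Leu and from Phe to Met were larger than the SD of either medium on the log2 scale. All other neighbours, from Leu down to Phe and from Met to NEG, differed by less than that spread.

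The order of ENSBTAG00000011839 was different below Arg. With Arg its level was 119 FPKM in the lowest library, 147 at the median and 264 in the highest (mean 163 ± 55.6, SD, n = 6). The highest value was that of Arg_4, and without it the mean of Arg was 143 ± 28.2 FPKM. With Leu the lowest library had 117 FPKM, the median was 123 and the highest, Leu_1, had 226, and the mean of 140 ± 42.4 became 123 ± 6.76 without Leu_1. All 6 libraries of Arg, Leu and His lay above the highest NEG library.

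Met, which had the lowest mean of ENSBTAG00000021617 among the single EAA, was the third of the single EAA for ENSBTAG00000011839 and above Leu when Leu_1 was left out, with 96.9 FPKM in the lowest library, 135 at the median and 148 in the highest (mean 128 ± 22.3). His had 112, 127 and 137 FPKM in the same order (mean 126 ± 8.42). Means of Val (113 ± 18.1), Trp (113 ± 17.5), Lys (105 ± 13.7) and Ile (101 ± 18.4) were lower, and 3, 4, 1 and 1 of their 6 libraries lay above NEG. Phe (92.5 ± 4.91) and Thr (87.2 ± 8.70) had means below that of NEG, and none of their libraries was above the highest NEG library. Apart from the step from POS to Arg, all neighbours in this order differed by less than the larger of their SD on the log2 scale.

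Each single EAA was compared with NEG by limma over all genes tested. NEG also served to choose these genes, and the 10 comparisons share its 6 libraries, and a choice by the rise from NEG favours genes that are low in these libraries. The differences are therefore a description, with no p-value, and a call (adjusted p under 0.05 by limma) is named only to show where each stood against the rest of the table. The differences of ENSBTAG00000021617 were largest in Arg at 1.03 (SE 0.22), Leu at 0.67 (SE 0.23), Val at 0.65 (SE 0.22) and Trp at 0.63 (SE 0.21) on the log2 scale, and these were past the threshold. Of all genes tested, 2.29% were called higher in Arg, 20.7% in Leu, 25.3% in Val and 15.0% in Trp, so among these 4 a call was least common with Arg. That share was unstable in Arg. Calls in either direction there ranged from 7 to 3363 genes over the alternatives run, with 804 in the main fit. In the other 6 comparisons of this gene the difference was between 0.22 (Met) and 0.54 (Thr) and not past it. The share of all genes called higher there was 23.4% in His, 15.8% in Ile, 13.9% in Lys, 17.7% in Met, 4.23% in Phe and 0.0330% in Thr.

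Much of the spread of ENSBTAG00000021617 came from NEG_2. Without it the differences fell to 0.80 in Arg, 0.44 in Leu, 0.42 in Val and 0.40 in Trp, and these calls held. His (0.24), Lys (0.22) and Thr (0.31) then passed as well, and Met was at −0.0036. The call of Arg was lost without NEG_1 (1.07), Arg_1 (1.04) or Arg_2 (1.00), the call of Leu without Leu_4 (0.62), and the call of Trp without Trp_4 (0.63), Trp_5 (0.60) or Trp_6 (0.59), while the differences hardly moved. With the replicate number as a block in the fit, the call of Arg was lost as well (1.03). Without the filter on low values, which raises the number of genes tested, Arg alone stayed called. Under the limits of the study, an unadjusted p below 0.05 with a log2 difference above 1 in size, Arg was the only single EAA called for this gene.

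For ENSBTAG00000011839 the differences from NEG are likewise a description, with no p-value. Its differences from NEG were largest in Arg at 0.71 (SE 0.18), Leu at 0.51 (SE 0.16), Met at 0.40 (SE 0.12) and His at 0.40 (SE 0.075), and these were past the threshold. Val and Trp (0.23 each) were not past it, nor were Lys (0.14), Ile (0.072), Phe (−0.044) or Thr (−0.13). The call of Arg was lost without any 1 of NEG_1 (0.71), NEG_3 (0.71), NEG_4 (0.70), NEG_5 (0.69), NEG_6 (0.70), Arg_1 (0.70) or Arg_2 (0.67). It was also lost without the filter on low values, and with the replicate number as a block in the fit (0.71). Under the limits of the study none of the single EAA was called for this gene (0). Val and Trp passed without NEG_2 (0.27 each), Val also without Val_3 (0.31) and Trp without Trp_1 (0.29). Without Ile_1 the small difference of Ile turned to −0.015.

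**Figure D2:**
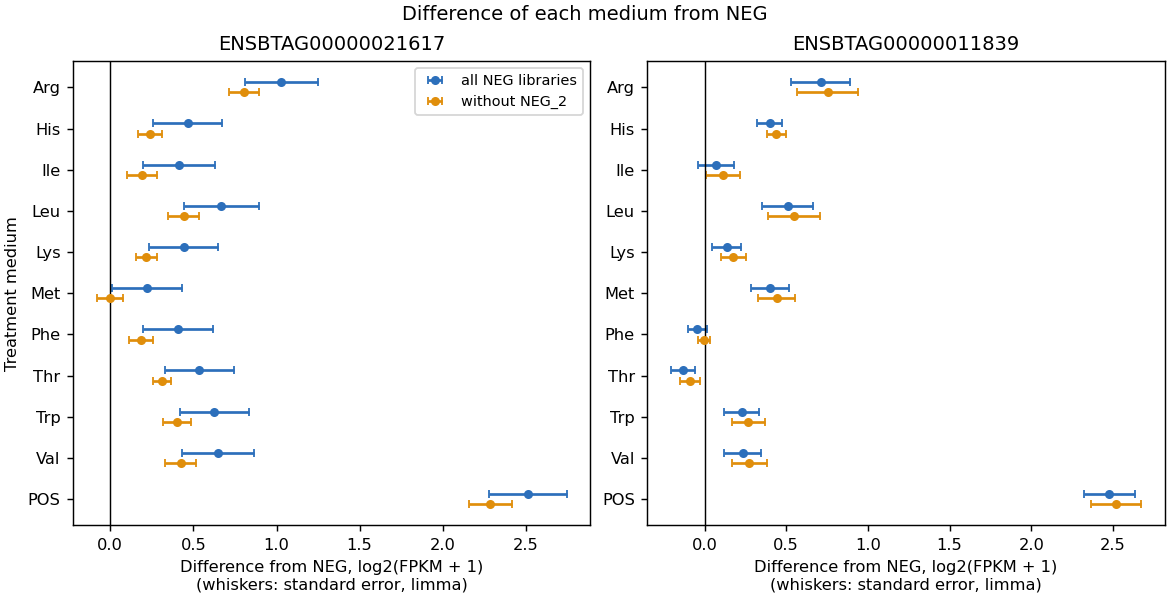
Difference of each medium from NEG on the log2(FPKM + 1) scale with its standard error from limma (whiskers), for all 6 NEG libraries (blue) and without NEG_2 (orange). Arg has the largest difference of the single EAA for both genes, at 1.03 and 0.71, Met differs from NEG for ENSBTAG00000011839 and lies near 0 for ENSBTAG00000021617 without NEG_2, and POS lies far to the right.

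Set against the rise in POS, Arg alone covered 41.0% of the log2 difference between POS and NEG for ENSBTAG00000021617 and 28.7% for ENSBTAG00000011839. On the FPKM scale these shares of Arg were 21.0% and 15.0%. Of the log2 difference, Leu covered 26.6% and 20.5%, and Met covered 8.83% of the first rise and 16.1% of the second. Without NEG_2 the shares of ENSBTAG00000021617 were 35.2% with Arg, 19.3% with Leu and −0.16% with Met, and those of ENSBTAG00000011839 were 29.9%, 21.8% and 17.5%. The place of Leu above Met for ENSBTAG00000011839 rested on Leu_1, without which the difference of Leu from NEG was 0.36 on the log2 scale, below the 0.40 of Met and of His. The rise that chose the genes is the divisor of these shares, so they are a description. Arg was the highest of the single EAA in 50 of the 314 genes (15.9%) that rose in POS by over 1 on the log2 scale with an adjusted p under 0.05 by limma, and in 8.39% of all genes tested. Val was the highest in 89 and Leu in 74 of the 314.

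On the linear scale the 10 single differences were also added up and set beside the rise, as a description. No medium other than POS combined EAA, so whether the single differences add up when EAA are given together was not tested. For ENSBTAG00000021617 their sum was 21.2 FPKM (SE 6.09) against a rise of 23.4 FPKM in POS (SE 2.23), which is 90.6%. NEG enters this sum with each EAA, and without NEG_2 the sum was 15.3 FPKM (SE 1.85) against 22.8 (SE 2.15), or 67.1%. For ENSBTAG00000011839 the sum was 215 FPKM (SE 45.4) against a rise of 453 (SE 57.8), or 47.5%. It was 39.2% without Leu_1 and Arg_4 and 53.9% without POS_4.

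The 60 libraries with a single EAA took no part in the choice of the genes, and both genes differed among these 10 media. The moderated F of limma was 15.5 for ENSBTAG00000021617 (adjusted p = 4e-10, rank 151 of 12121 genes by F) and 6.51 for ENSBTAG00000011839 (adjusted p = 1.8e-05, rank 2380). By that test 75.9% of all genes were called, so a call as such was common. Without Leu_1 and Arg_4 the ranks were 507 and 3918, and by voom on recovered reads the first gene had rank 240.

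Each EAA was then compared with the mean of the other 9. Arg was higher for both genes, by 0.54 on the log2 scale for ENSBTAG00000021617 (SE 0.058, adjusted p = 3.5e-10 by limma) and by 0.51 for ENSBTAG00000011839 (SE 0.11, adjusted p = 0.00037 by limma). Of all genes, 15.5% were called in this comparison, in either direction (1876 genes, and 1578 to 5115 over the alternatives run). Without Arg_4 the difference of ENSBTAG00000011839 was 0.36 and was still called. Both Arg differences passed when each of the 60 libraries was left out in turn, and with the number of genes above 0 as a covariate, where they were 0.51 and 0.36.

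Both genes were called in Phe and Leu, and 1 of them in Met and Thr. ENSBTAG00000021617 was lower with Met by 0.36 (SE 0.058, adjusted p = 1.1e-05 by limma, 7.85% of all genes called), whereas ENSBTAG00000011839 was 0.17 above the mean of the others with Met (SE 0.11, adjusted p = 0.45). ENSBTAG00000011839 was lower with Thr by 0.43 (SE 0.11, adjusted p = 0.0012 by limma, 57.4% called), and ENSBTAG00000021617 was at −0.010 with Thr (adjusted p = 0.89). Whether the genes differed from each other in these responses was not tested. Phe was lower for both, at −0.15 (adjusted p = 0.033 by limma) and −0.33 (adjusted p = 0.015), in a comparison that called 41.6% of genes. The first of these was lost without Phe_1 (−0.15), Phe_3 (−0.12), Phe_4 (−0.14) or Phe_6 (−0.14).

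Leu was higher for both genes, at 0.13 for ENSBTAG00000021617 (adjusted p = 0.043 by limma) and 0.29 for ENSBTAG00000011839 (adjusted p = 0.021 by limma), where 58.0% of genes were called. The second call rested on Leu_1, without which the difference was 0.14 and did not pass. The first was lost without Leu_1 (0.13), Leu_4 (0.087) or Leu_6 (0.13). Neither gene was called in His (3.15% of genes called), Ile (3.70%), Lys (0.305%), Trp (0.264%) or Val (31.1%).

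The levels of both genes rose and fell together over the whole set mainly through POS. Over all 72 libraries Pearson's r of log2(FPKM + 1) was 0.87 and Spearman's rho 0.46, and over the 66 libraries without POS r was 0.37. As the genes were chosen to be high in POS and low in NEG, these values are partly set by the choice. Within media, after the mean of each medium was removed, r over the 60 libraries with a single EAA was 0.30 (two-sided permutation test, p = 0.042, adjusted p = 0.084 over the 4 relations computed) and rho was 0.30 (permutation p = 0.031, adjusted p = 0.041). Without Arg_4 and Leu_1, the libraries farthest from the median of ENSBTAG00000011839, r was 0.28 and its permutation p was 0.066. The relation was thus weak and near the threshold. Leaving out 1 library moved r to between 0.25 and 0.37, and an unadjusted p under 0.05 was lost without Arg_2, Arg_4, Arg_5, His_1, His_4, Ile_4, Leu_5, Met_2, Met_6 (0.25, the lowest r), Trp_1, Trp_3, Trp_6, Val_2 or Val_3.

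**Figure D3:**
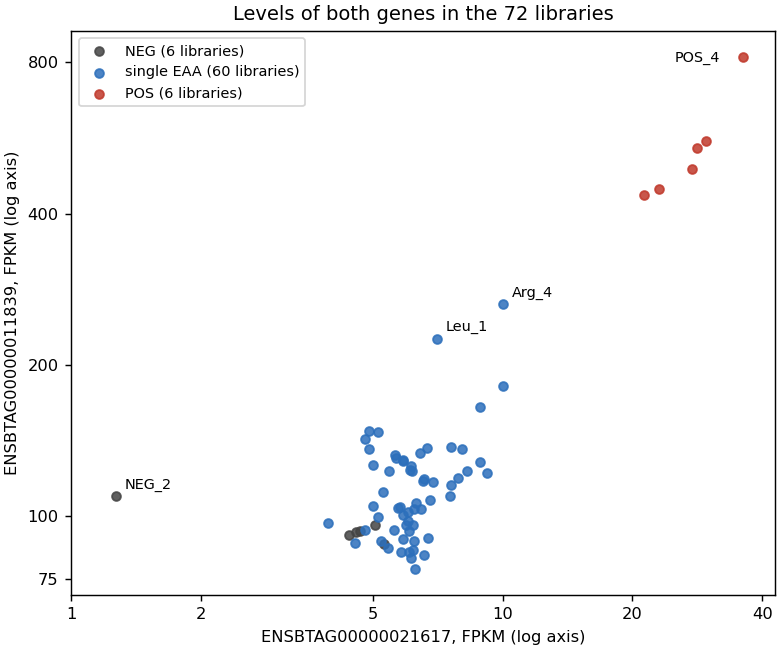
FPKM of ENSBTAG00000021617 (x axis, log) and ENSBTAG00000011839 (y axis, log) in the 72 libraries, coloured by medium (NEG, single EAA, POS). The 6 POS libraries lie apart at the upper right with POS_4 highest for both genes, while the 60 single-EAA libraries form a cloud in which r within media was 0.30.

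In 7 of the 10 media r was positive, from −0.25 in Lys to 0.81 in His, with 6 libraries each. In POS, the libraries ranked in the same order for both genes and r was 0.94, with POS_4 highest in both. In NEG r was −0.93 and rho −0.43, and NEG_2 was lowest for ENSBTAG00000021617 and highest for ENSBTAG00000011839. The reads of ENSBTAG00000011839 in NEG_2 (7643) lay within the range of NEG (7493 to 7932), so its high level there went with the scaling. Between media, r over the 10 means of the single EAA was 0.53 (two-sided permutation test, p = 0.11, adjusted p = 0.12) and rho 0.48 (permutation p = 0.17). Without Arg and Thr, which were farthest from the median, r was 0.19, so it rested on these 2 media.

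The genes differed in how they moved with the number of genes above 0 in a library. Within media, r of ENSBTAG00000011839 with that number was −0.83 (permutation p = 1e-05, the smallest that 100000 permutations can give, adjusted p = 4e-05) and rho was −0.76. Without Leu_1 and Arg_4 r was −0.75. For ENSBTAG00000021617 r was −0.23 (permutation p = 0.12, adjusted p = 0.12) and rho −0.29 (permutation p = 0.030, adjusted p = 0.041). After the number of genes above 0 was removed by regression, r between both genes was 0.19 (permutation p = 0.18). With that number as a covariate in the comparison with the other 9 EAA, ENSBTAG00000011839 was at 0.36 in Arg, −0.22 in Thr, −0.048 in Leu and −0.14 in Phe, and of these Arg and Thr were called. Ile (−0.25) and Met (0.23) then passed.

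**Figure D4:**
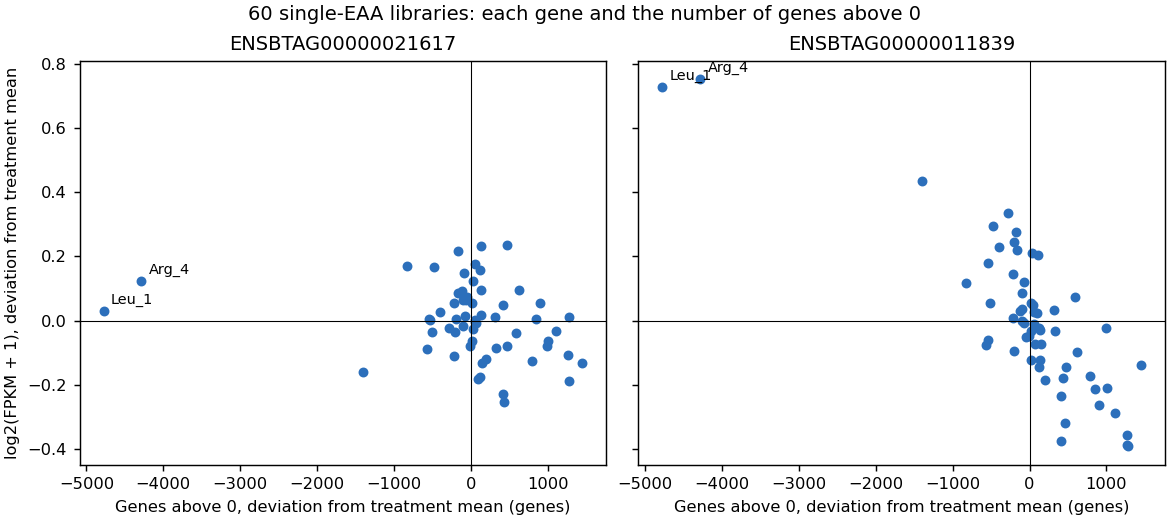
Deviation of each gene from the mean of its medium on the log2(FPKM + 1) scale (y axis) against the deviation of the number of genes above 0 (x axis) in the 60 single-EAA libraries. ENSBTAG00000011839 is higher in libraries with fewer genes above 0 (r = −0.83), and Leu_1 and Arg_4 lie far to the left in both panels.

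Of the other 12119 genes tested, many followed ENSBTAG00000011839 within media and few followed ENSBTAG00000021617. Correlations of this kind are a description across genes that share libraries. In the single-EAA libraries ENSBTAG00000021617 had 251 to 710 reads and ENSBTAG00000011839 had 6250 to 17930. Counting error limits r more for the first, and its part in this contrast was not tested. For ENSBTAG00000011839, 2981 genes had r of at least 0.5 and 932 of at least 0.8, with 4662 at −0.5 or below. For ENSBTAG00000021617, 23 genes had r of at least 0.5, 12 were at −0.5 or below and 0 reached 0.8. After the number of genes above 0 was removed, the 932 genes became 4. The 50 genes most like each of the 2 had 0 in common, and each was far from the top of the list of the other. ENSBTAG00000011839 held rank 1968 in the list of ENSBTAG00000021617, which held rank 3791 in the list of ENSBTAG00000011839.

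Most like ENSBTAG00000021617 within media were ENSBTAG00000014471 (r = 0.61) and ENSBTAG00000019139 (r = 0.57). ENSBTAG00000014471 ranged from 56.5 to 92.3 FPKM with a median of 68.9 over the single-EAA libraries, and had means of 52.1 ± 10.9 in NEG and 42.7 ± 6.33 in POS (SD, n = 6), so it did not share the high level in POS. ENSBTAG00000019139 had 10.5 ± 2.38 FPKM in NEG and 13.4 ± 4.59 in POS. The most opposite were ENSBTAG00000018286 and ENSBTAG00000004272 (r = −0.57 and −0.55), with means of 97.5 ± 19.6 and 9.58 ± 4.54 FPKM in NEG and 64.7 ± 12.7 and 5.63 ± 2.36 in POS.

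Most like ENSBTAG00000011839 were ENSBTAG00000005976 and ENSBTAG00000003068, both with r = 0.95. ENSBTAG00000005976 ranged from 12.2 to 54.6 FPKM (median 18.7) in the single-EAA libraries and had means of 18.3 ± 3.43 in NEG and 40.0 ± 16.7 in POS. ENSBTAG00000003068 ranged from 90.4 to 372 FPKM (median 151) and had 128 ± 27.7 in NEG and 338 ± 145 in POS, a difference of 1.33 on the log2 scale. These kept r of 0.83 and 0.86 after the number of genes above 0 was removed, and 0.91 and 0.94 without Leu_1 and Arg_4. The most opposite, ENSBTAG00000039719 and ENSBTAG00000001795 (both r = −0.93), had 158 ± 15.6 and 79.0 ± 4.44 FPKM in NEG and 47.1 ± 17.5 and 29.2 ± 12.8 in POS.

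**Figure D5:**
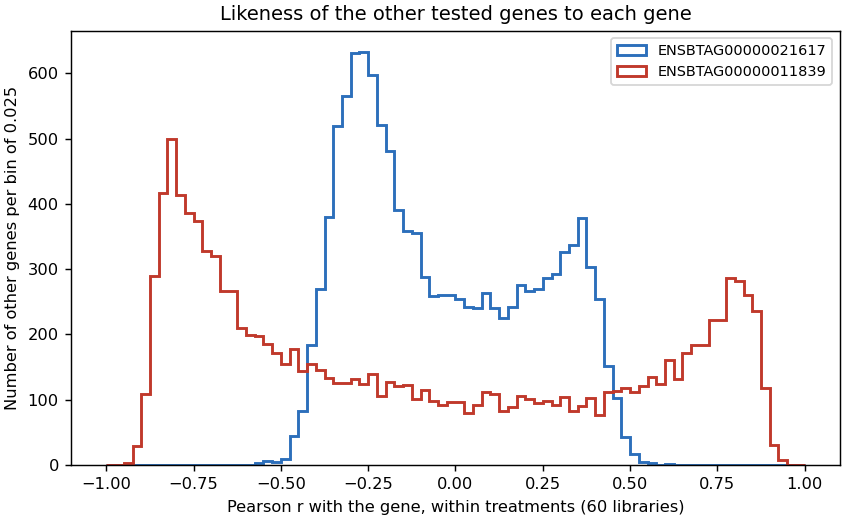
Number of other tested genes by their Pearson r with each gene within media, over the 60 single-EAA libraries, in bins of r. The distribution of ENSBTAG00000011839 (red) has peaks near both ends, with 932 genes at 0.8 or above, while that of ENSBTAG00000021617 (blue) has none at 0.8 or above.

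The lists depended in part on Leu_1 and Arg_4, which were left out together. Of the 50 genes most like ENSBTAG00000021617 within media, 17 were among its 50 without Leu_1 and Arg_4, and for ENSBTAG00000011839 it was 15. These lists moved with the number of genes above 0, with a median r of −0.63 for the list of ENSBTAG00000021617 and −0.86 for that of ENSBTAG00000011839, and 26 and 14 of the 50 were among the most like after that number was removed. Among these 50 genes, 18 of the list of ENSBTAG00000021617 and 21 of that of ENSBTAG00000011839 were called higher in POS than in NEG by limma, where 14.3% of all genes were. The median difference between POS and NEG was 0.34 and 0.51 on the log2 scale in these lists and −0.061 over all genes tested.

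Between media, over the 10 means, 74 genes had r of at least 0.8 with ENSBTAG00000021617 and 340 with ENSBTAG00000011839. The genes at the top, picked after their values were seen, were ENSBTAG00000002315 for the first (r = 0.96) and ENSBTAG00000053807 for the second (r = 0.99). Neither shared the rise in POS. ENSBTAG00000002315 had 3.61 ± 0.704 FPKM in POS and 4.88 ± 0.710 in NEG, and ENSBTAG00000053807 had 1.54 ± 0.329 and 1.81 ± 0.934. Within media their r with the same genes, after the number of genes above 0 was removed, was −0.073 and −0.020. Of the 50 genes most like ENSBTAG00000021617 between media, 2 were among its 50 within media, and for ENSBTAG00000011839 it was 0. In these lists 20 and 30 of 50 were called higher in POS by limma, against the same 14.3% of all genes.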

How the data were processed

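RNA-seq of 72 BMEC libraries was used. Per the submitters' processing notes, the authors used HISAT2 (version 2.0.5), StringTie (version 1.3.3b), featureCounts (version 1.5.0-p3) and DESeq2 (version 1.20.0). The paper names Trimmomatic, Hisat2 and StringTie, but cufflinks and htseq-count for FPKM and read counts and the DESeq package for the comparisons, and which of these made the deposited values is not settled. Nearly all values above 0 were whole reads scaled by gene length and by a library factor following the median ratio of reads between libraries. That gives the form of the values and does not name the program. No source used here names the genome build. The authors deposited FPKM of 29550 genes, of which 27570 have Ensembl identifiers and 1980 running names, and all 72 columns were assigned by name. Labels and paper name different library kits and plates, shared by all libraries. PCR copies were not marked, and the paper calls the replicates biological without saying whether they came from separate cows or culture batches, so p-values measure the spread between these libraries.

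Whole reads were recovered as FPKM times length times a library factor, and of the values above 0, 99.994% were whole within 0.001 of a read, with the recovery tested on simulated data. Totals of reads on genes ranged from 12006111 to 18602430. Tests were run in R (version 4.3.3) by limma (version 3.58.1) on log2(FPKM + 1) with a trended prior. They covered the 12121 genes whose FPKM averaged 1 or more, with Benjamini-Hochberg adjustment over all of them, and a call is an adjusted p under 0.05. This scale understates changes of low genes. Comparisons with NEG used the 12 libraries of both media, and those among single EAA 1 fit of 60 libraries. Correlations and their 100000 permutations used scipy (version 1.17.1), pandas (version 2.3.3) and numpy (version 2.4.6) in Python (version 3.11.15), and figures matplotlib (version 3.10.9). Alternatives were a pseudocount of 0.1, no filter, scaling by total reads, voom on recovered reads (9076 genes called by the F-test, 9205 on FPKM), a replicate block, 1 fit of all 12 media, the study's limits, and libraries left out. The covariate of genes above 0 was added after seeing the data.

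Both genes and all lists were chosen with earlier results of these data known. Of the identifiers, 0 were found in the 37063 rows of the reference table, so planned lists of symbols and cell type markers were not run and no sequence is shown. The rule for named genes therefore took the 2 identifiers with the highest and the 2 with the lowest r within media for each gene.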

Additional observations from a re-analysis of the deposited data

Results flagged for a closer look

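In 7 of 24 sets of 6 replicates, the end library of a medium stood apart from the other 5 by more than the critical value of Dixon's test for 6 samples (gap to the nearest library over the whole range), where chance gives about 1.2 of 24. The comparison with chance is rough, because both genes share libraries and 3 of the 7 lie in NEG or POS, whose values chose the genes. For ENSBTAG00000021617 these were NEG_2, with 1.27 FPKM where the nearest NEG library had 4.40 (gap over range 0.777), and Met_6, with 3.93 FPKM where the nearest had 4.79 (0.717). For ENSBTAG00000011839 NEG_2 was the highest of NEG, with 109.9 FPKM and 96.3 in the nearest (0.631). Its 7643 reads of this gene lay within the NEG range of 7493 to 7932, and its library factor was the lowest of NEG (0.842). It thus stood apart in scaled level and not in reads. In the same gene, Leu_1 had 225.7 FPKM against 133.9 (0.847), Lys_1 had 132.3 against 104.2 (0.777), Ile_1 had 135.8 against 103.6 (0.633) and POS_4 had 819.4 against 558.2 (0.681). Leu_1 and POS_4 were among the 3 libraries with the fewest genes above 0 (10495 and 13537), Ile_1 came next to them with 15211, and Lys_1 (16694), Met_6 (17570) and NEG_2 (16596) did not stand apart in that number. Within media, r of ENSBTAG00000011839 with the number of genes above 0 was −0.83.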

How the results depend on the processing

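The F-tests and both Arg differences from the other 9 EAA kept direction and call under every alternative run, and the differences between POS and NEG, which were not tested, kept their direction. All differences here are on the log2 scale, and the causes of changed calls were not tested. For ENSBTAG00000021617 against NEG, calls were lost without the filter on low values (Leu 0.67, Trp 0.63, Val 0.65), leaving 1 EAA called. Under the study's limits Leu (0.67), Trp (0.63) and Val (0.65) were lost, also leaving 1, and 1 fit of all 12 media gave 9 (added His 0.46, Ile 0.41, Lys 0.44, Phe 0.41, Thr 0.54). Scaling by total reads added His (0.55). For ENSBTAG00000011839, Arg (0.71) was lost without the filter, and under the study's limits none of the EAA was called (0), with Arg (0.71), His (0.40), Leu (0.51) and Met (0.40) lost. Scaling by total reads added Trp (0.34) and Val (0.39) and turned Phe (0.025).

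Replicate numbers are shared between media. Each other medium was paired with NEG, and same-numbered libraries deviated together in each of the 6 pairs only for Trp (lowest r 0.10). Pairs of media without NEG are not given here. Of the 72 libraries, 21 were closest to their own number, where unrelated numbers would give 12. With the replicate block, the calls of Arg against NEG were lost for both genes (1.03 and 0.71), r of both genes within media was 0.40, and no other call of either gene changed.

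Against the other 9 EAA, Leu of ENSBTAG00000021617 was lost without the filter (0.13), with scaling by total reads (0.13) and without Leu_1 and Arg_4 (0.13), and Val passed with scaling by total reads (0.17). Its count of EAA called higher was 1 without the filter, without Leu_1 and Arg_4, and with genes above 0 as a covariate. For ENSBTAG00000011839, leaving out Leu_1 and Arg_4 lost Leu (0.16), left 1 called higher and turned Trp (0.0053) and Val (0.013), and scaling by total reads turned Val (0.042). The covariate of genes above 0, chosen after seeing the data, changed for ENSBTAG00000021617 Ile (−0.15, now called), Leu (0.089) and Phe (−0.13, both lost) and Thr (0.017, turned), and for ENSBTAG00000011839 Ile (−0.25) and Met (0.23, both now called), Phe (−0.14, lost), and Leu (−0.048), Trp (0.060) and Val (0.036, all turned). Within media, r of both genes was 0.28 without Leu_1 and Arg_4 and 0.19 with genes above 0 removed. Their unadjusted permutation p was 0.066 and 0.18. The main r of 0.30 had a permutation p of 0.042 unadjusted and 0.084 adjusted.

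With 1 library left out, differences from NEG of ENSBTAG00000021617 ranged from 0.80 to 1.10 in Arg, 0.24 to 0.53 in His, 0.19 to 0.48 in Ile, 0.44 to 0.74 in Leu, 0.22 to 0.51 in Lys, −0.0036 to 0.29 in Met, 0.18 to 0.48 in Phe, 0.31 to 0.61 in Thr and 0.40 to 0.70 in Trp, with 3 to 7 EAA called. Those of ENSBTAG00000011839 ranged from 0.56 to 0.79 in Arg, −0.015 to 0.12 in Ile, 0.068 to 0.18 in Lys, 0.17 to 0.29 in Trp and 0.18 to 0.31 in Val, with 3 to 6 called. Against the other 9, ENSBTAG00000021617 ranged from 0.087 to 0.16 in Leu, −0.20 to −0.12 in Phe and −0.025 to 0.0023 in Thr, with 1 to 2 called higher and 1 to 2 lower, and ENSBTAG00000011839 from 0.14 to 0.33 in Leu, −0.087 to 0.036 in Trp and −0.075 to 0.058 in Val, with 1 to 2 higher. Within media r of both genes ranged from 0.25 to 0.37. The background moved more: over all alternatives, calls against NEG ranged from 7 to 3363 genes in Arg, 0 to 4122 in Phe and 0 to 2604 in Thr, where the main counts were 804, 1479 and 4. Against the other 9 EAA they ranged from 21 to 2693 in His, 216 to 2597 in Ile, 9 to 298 in Lys, 13 to 1044 in Trp and 1803 to 7128 in Val, with main counts of 382, 448, 37, 32 and 3767. In the same comparison with the other 9 EAA, calls ranged from 1578 to 5115 in Arg and 647 to 2977 in Met (main counts 1876 and 952). In Leu the range was 3554 to 7871 and in Phe 3263 to 7178 (main counts 7026 and 5037). With 70 to 2122 reads, ENSBTAG00000021617 carries more counting error than ENSBTAG00000011839.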
